A study of Mus musculus with 6 samples.

Results

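The genes described here are 10 mouse genes of myeloid cell-surface receptors and their signalling adaptor: the Trem family genes Trem1, Trem2, Trem3, Treml2 and Treml4, the adaptor gene Tyrobp, the Cd300 family genes Cd300a, Cd300lb and Cd300lf, and Havcr2, which encodes Tim-3. They were chosen by gene symbol, and all 10 were found among the 18211 genes of the table. The list was drawn up with the wildtype to DISC1-Δ3 difference of these same libraries in view, so that difference is given for the 10 genes as a description and without a test.

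Trem and Cd300 receptors sit on microglia, macrophages, neutrophils and monocytes, and most activating members have no signalling tail of their own. They pair with the adaptor that Tyrobp encodes (also called DAP12), whose ITAM motif recruits the kinase Syk, whereas inhibitory members such as Cd300a and Cd300lf carry ITIM motifs that recruit the phosphatases Ptpn6 and Ptpn11. In the brain Trem2 is a microglial receptor for lipids and lipoproteins that supports phagocytosis, and Tim-3 is a checkpoint receptor that binds galectin-9 and phosphatidylserine.

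RNA was sequenced from 6 libraries labelled as oligodendroglia progenitor cells (OPCs), 3 wildtype and 3 DISC1-Δ3. All came from C57BL/6 mice killed on postnatal day 7, and in both groups tamoxifen had been gavaged daily over 4 days, from day 4 through day 7. DISC1-Δ3 mice had the genotype NG2-CreERTM:DISC1 exon3 fl/+, in which tamoxifen removes exon 3 from a single Disc1 allele in cells that use the NG2 (Cspg4) promoter, a proteoglycan gene of OPCs and pericytes. The wildtype mice, by the methods, lacked CreERT, so the recombinase differed between the groups together with the allele. Cells were panned on a Pdgfrα antibody, which is meant to retain OPCs. No label says whether the 3 libraries of a group came from separate animals, so every p-value below measures the spread between these libraries, which may be technical.

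The panned libraries held abundant microglial RNA. RPKM scales reads to transcript length and to the library's mapped reads, and so allows genes to be set side by side. The RPKM of Csf1r, the growth factor receptor of microglia and macrophages, exceeded that of the OPC receptor gene Pdgfra 107-fold ± 1.85 in wildtype and 51.1-fold ± 1.93 in DISC1-Δ3 (SD, n = 3 libraries each). Csf1r ranked 40 and Pdgfra 3782 of 18211 genes by mean RPKM. All 8 OPC markers were detected, with a summed RPKM of 524 to 544 in wildtype and 668 to 692 in DISC1-Δ3. The 14 microglial markers summed to 15836 to 16181 RPKM in wildtype and 11105 to 11533 in DISC1-Δ3, and 13 of them fell in the edgeR quasi-likelihood test, p-values adjusted by Benjamini-Hochberg over 13792 genes. The table gives 1 value per gene and cannot separate exon 3 of Disc1; Disc1 as a whole read 3.51, 3.34 and 3.81 RPKM in wildtype and 2.86, 2.44 and 2.85 in DISC1-Δ3 (log2 fold change −0.45 ± 0.09 SE, edgeR adjusted p = 0.000528). Library totals ran from 13716619 to 16417219 reads. DISC1-Δ3 replicate 3 stood further from its group than any other library, with a chi-square over gene counts, divided by its degrees of freedom, of 4.98 to 5.24 against the other DISC1-Δ3 libraries and 1.81 to 2.92 among the remaining pairs. In bulk libraries such as these, fewer microglia and less RNA per microglial cell cannot be told apart.

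The 10 genes spanned a wide range of levels. By mean RPKM in wildtype the order was Tyrobp, Trem2, Cd300a, Havcr2, Cd300lf, Treml2, Treml4, Trem1, Trem3 and Cd300lb, and only Treml4 and Trem1 overlapped as neighbours in that order. In DISC1-Δ3 Cd300lf lay at the level of Treml2, whose RPKM values it overlapped, Treml4 and Trem1 again overlapped, and Cd300lb stood above Trem3. Tyrobp ranked 108 and Trem2 ranked 209 of 18211 genes, Cd300a ranked 3658, and the lowest, Trem3, ranked 13524.

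**Figure D1:**
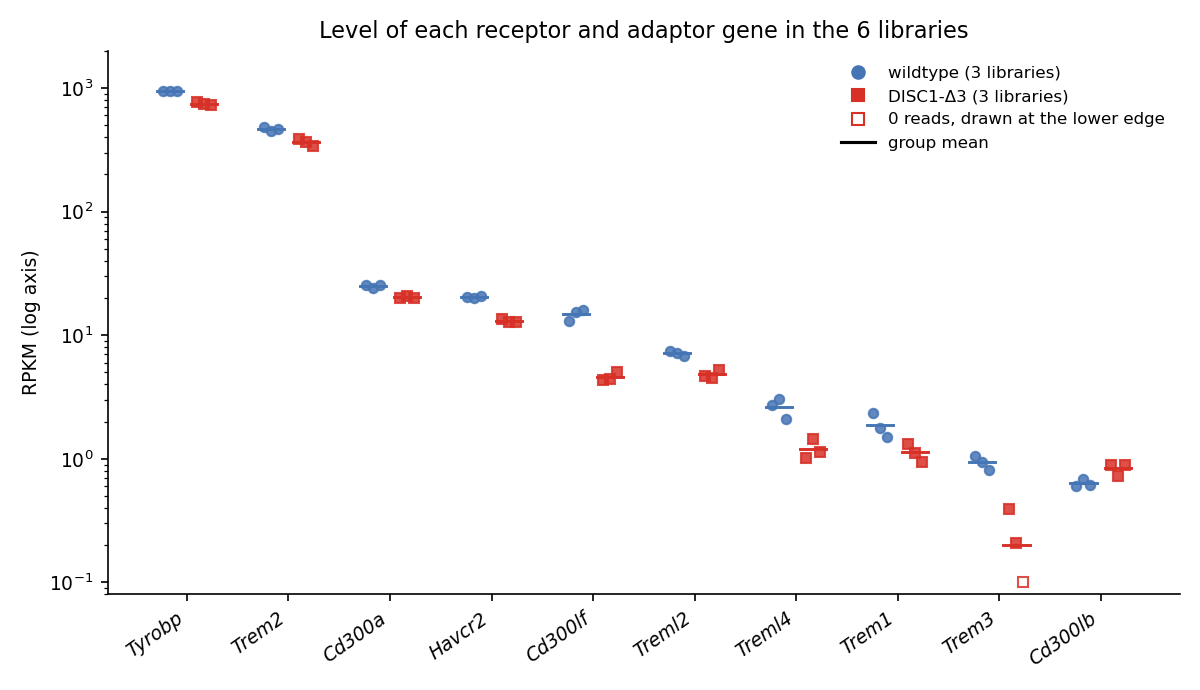
RPKM on a log axis of each of the 10 genes in the 3 wildtype (blue circles) and 3 DISC1-Δ3 (red squares) libraries, with a line at each group mean and an open square at the lower edge for the library with 0 Trem3 reads. Tyrobp lies at 944 and 744 RPKM by group mean and Cd300lb at 0.637 and 0.837, and Cd300lb is the one gene whose red squares all lie above its blue circles.

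The promoters of 3 genes, Cd300lf, Havcr2 and Cd300lb, are shown as examples. Cd300lf had the lowest DISC1-Δ3 level relative to wildtype of the genes with over 1 RPKM in wildtype. Cd300lb lies in the same gene cluster as Cd300lf. RefSeq on GRCm38.p6 gave a window of 250 bases before to 50 after the gene start for 7 of the 10 genes, and Trem3, Treml2 and Tyrobp had none. Each sequence reads 5′ to 3′ along the gene's strand, and capitals mark the letters GAGGAAGT, a core bound by the myeloid factor PU.1 and other ETS factors. The windows are chr11:46454681-46454980 on the plus strand for Havcr2, chr11:115133943-115134242 on the minus strand for Cd300lf and chr11:114934322-114934621 on the minus strand for Cd300lb.
Havcr2: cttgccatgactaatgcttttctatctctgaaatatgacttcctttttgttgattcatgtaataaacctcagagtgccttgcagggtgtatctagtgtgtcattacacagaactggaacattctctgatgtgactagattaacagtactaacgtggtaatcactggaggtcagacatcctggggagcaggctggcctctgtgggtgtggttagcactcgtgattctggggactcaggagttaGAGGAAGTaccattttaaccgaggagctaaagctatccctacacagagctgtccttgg
Cd300lf: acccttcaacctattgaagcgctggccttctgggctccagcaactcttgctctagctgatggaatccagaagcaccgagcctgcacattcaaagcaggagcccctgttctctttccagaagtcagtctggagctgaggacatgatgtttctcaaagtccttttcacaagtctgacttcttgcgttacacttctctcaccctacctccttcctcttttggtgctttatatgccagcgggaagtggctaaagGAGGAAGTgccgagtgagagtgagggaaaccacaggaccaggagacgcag
Cd300lb: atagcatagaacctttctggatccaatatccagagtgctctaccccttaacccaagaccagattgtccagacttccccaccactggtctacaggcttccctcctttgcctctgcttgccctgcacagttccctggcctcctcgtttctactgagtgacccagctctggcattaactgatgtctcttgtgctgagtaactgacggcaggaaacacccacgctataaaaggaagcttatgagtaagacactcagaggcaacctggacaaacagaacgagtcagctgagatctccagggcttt
Both strands of every window were searched. GAGGAAGT occurred in 1052 of 32851 promoters of the same length (3.20%) and in 2 of the 7 found here, at positions −8 to −1 of Havcr2 and 1 to 8 of Cd300lf, where position 1 is the first base of the gene start that the window uses and −1 the base before it. The Cd300lf window uses a start inside the annotated gene, which runs from 115116214 to 115135372. The letters CTTTGAT, a TCF/LEF core, occurred in 3.73% of promoters and in 1 of the 7, that of Treml4, on the opposite strand at positions −37 to −31. The Treml4 window also uses a start inside the annotated gene, which begins at 48264200, and this match lies within the gene. An interferon-response core, GAAA followed by any 2 bases and GAAA again, occurred in 3.44% of promoters and in 0 of the 7. A match is a run of letters and not a measured binding site. Both windows with GAGGAAGT are among the 3 shown. The windows of Trem1, Trem2, Treml4 and Cd300a, genes also lower in DISC1-Δ3, held no GAGGAAGT. That of Cd300a (chr11:114889791-114890090) lies wholly within the annotated gene, which begins at 114889152, so the bases before that start were not searched. The Trem1 window also uses a start inside its annotated gene.

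Tyrobp and its best known partner in microglia, Trem2, were lower in DISC1-Δ3 by nearly the same proportion. Tyrobp (chr7:30413782-30417582) read 941, 945 and 945 RPKM in the 3 wildtype libraries and 766, 739 and 728 RPKM in the 3 DISC1-Δ3 libraries. All 3 DISC1-Δ3 values lay below all 3 wildtype values, and the wildtype values were nearly identical. The fitted log2 fold change, which is scaled to the bulk of genes by TMM (trimmed mean of M-values) and is negative where DISC1-Δ3 is lower, was −0.42 ± 0.04 (SE). Trem2 (chr17:48346401-48352276) read 480, 448 and 467 RPKM in wildtype and 384, 367 and 339 RPKM in DISC1-Δ3, again without overlap, with a log2 fold change of −0.43 ± 0.05 (SE). The ratio of Trem2 to Tyrobp RPKM was 0.492 ± 0.018 in wildtype and 0.488 ± 0.019 in DISC1-Δ3 (SD, n = 3 each), and the ratios of the groups overlapped.

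Across the 10 genes, 9 were past the adjusted p threshold of 0.05 in the lower direction and 0 in the higher direction, beside 19.5% of all 13792 tested genes called lower and 20.4% called higher. The RPKM ranges of the groups did not overlap for all 10, with 9 lower and 1 higher in DISC1-Δ3, beside 16.1% of tested genes with lower and 35.9% with higher ranges that did not overlap. The genes were chosen on this contrast, so nothing is read from these counts. Their median log2 fold change was −0.69, beside 0.0075 over all tested genes. Higher genes made up 51.1% of all calls, and 69.2% where libraries were scaled by their totals alone, which moved the median of all genes to 0.09. No gene among the 10 changed direction under that scaling.

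The other Trem genes were far less abundant than Trem2. Treml2 (chr17:48299390-48312534), a receptor of B cells, neutrophils and macrophages that does not use Tyrobp, read 7.45, 7.22 and 6.83 RPKM in wildtype and 4.65, 4.53 and 5.26 RPKM in DISC1-Δ3 (log2 fold change −0.65 ± 0.08 SE). Each DISC1-Δ3 library was below each wildtype library. Trem1 (chr17:48232713-48246927), an activating receptor of neutrophils and monocytes that amplifies inflammation through Tyrobp, read 2.36, 1.77 and 1.5 RPKM in wildtype and 1.33, 1.12 and 0.94 RPKM in DISC1-Δ3 (−0.82 ± 0.20 SE). The lowest wildtype library and the highest DISC1-Δ3 library lay close together.

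Treml4 (chr17:48264200-48275607), a Tyrobp-linked receptor of myeloid cells that binds dead cells, had 61, 81 and 55 reads in wildtype and 23, 38 and 29 reads in DISC1-Δ3, or 2.75, 3.06 and 2.09 RPKM against 1.01, 1.46 and 1.13 RPKM. The groups were well apart despite the low counts, with a log2 fold change of −1.21 ± 0.22 (SE). Trem3 (chr17:48247677-48258848), a close relative of Trem1, had 13, 14 and 12 reads in wildtype and 5, 3 and 0 reads in DISC1-Δ3. Summed over libraries these are 39 and 8 reads, and scaled by library totals wildtype exceeded DISC1-Δ3 4.87-fold (95% exact interval 2.25 to 12.1). The fitted log2 fold change was −2.31 ± 0.58 (SE) and depends on the prior count at such low reads. It was −3.17 without DISC1-Δ3 replicate 1 and −1.72 without DISC1-Δ3 replicate 3. The interval covers counting error only, and the 0 allows no fold change for DISC1-Δ3 replicate 3 alone.

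The Cd300 genes differed from each other. Cd300a (chr11:114889152-114901946), an inhibitory receptor for phosphatidylserine and phosphatidylethanolamine, read 25.3, 24.1 and 25.6 RPKM in wildtype and 20.1, 20.8 and 20.1 RPKM in DISC1-Δ3. This was a shift of −0.42 ± 0.06 (SE) on the log2 scale, the same size as that of Tyrobp. Cd300lf (chr11:115116214-115135372), an inhibitory receptor that also binds phosphatidylserine, read 13.04, 15.4 and 15.9 RPKM in wildtype and 4.34, 4.41 and 5.0 RPKM in DISC1-Δ3. Its reads numbered 296, 426 and 435 against 105, 119 and 131, and the log2 fold change was −1.78 ± 0.11 (SE), a wildtype level 3.43-fold that of DISC1-Δ3. The ratio of Cd300lf to Cd300a RPKM was 0.592 ± 0.067 in wildtype and 0.225 ± 0.020 in DISC1-Δ3 (SD, n = 3 each), without overlap.

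Cd300lb (chr11:114922779-114934371), an activating receptor that signals through Tyrobp, was not lower in DISC1-Δ3. It had 21, 29 and 27 reads in wildtype and 35, 32 and 38 reads in DISC1-Δ3, or 0.60, 0.69 and 0.62 RPKM against 0.90, 0.72 and 0.89 RPKM. Every DISC1-Δ3 library was above every wildtype library, by a small margin for DISC1-Δ3 replicate 2. The fitted log2 fold change of 0.37 ± 0.23 (SE) was the one of the 10 that was not past the threshold. Scaled by library totals instead of TMM, the 77 and 105 summed reads gave a ratio of 1.36 (DISC1-Δ3 over wildtype, 95% exact interval 1.01 to 1.85, counting error only). The fit was higher under that scaling too, at 0.45 ± 0.23 (SE), so the lower end of the interval depends on the scaling.

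Havcr2 (chr11:46454931-46481255), whose product Tim-3 restrains microglia, macrophages and T cells, stood at a similar level to Cd300a. It read 20.6, 20.1 and 20.7 RPKM in wildtype and 13.6, 12.7 and 12.8 RPKM in DISC1-Δ3, with a log2 fold change of −0.73 ± 0.06 (SE). The spread within each group was small beside the gap between them. Havcr2 stood at 0.818 ± 0.013 of the Cd300a RPKM in wildtype and at 0.641 ± 0.031 in DISC1-Δ3 (SD, n = 3 each).

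**Figure D2:**
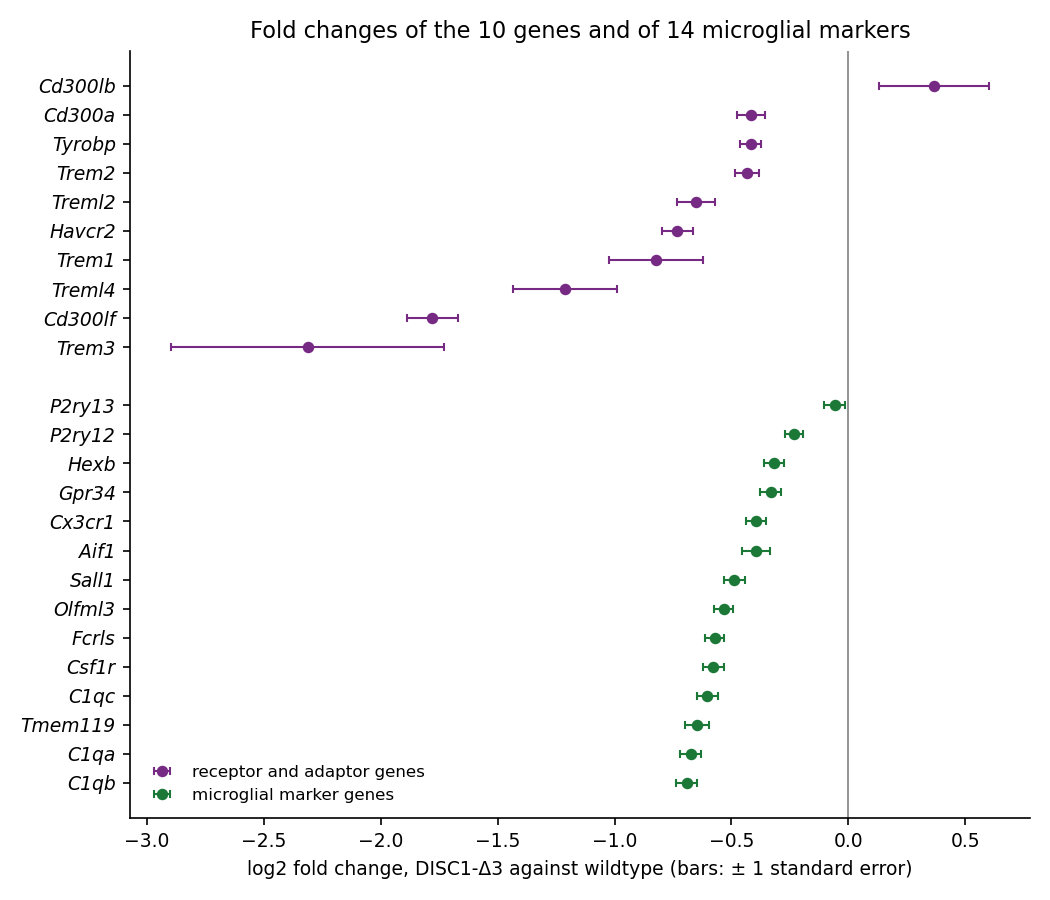
Fitted log2 fold change of DISC1-Δ3 against wildtype (x axis, bars ± 1 standard error, n = 3 libraries per group) for the 10 genes (purple) and 14 microglial markers (green). Tyrobp, Trem2 and Cd300a lie at −0.43 to −0.42, within the range of the markers (−0.69 to −0.06), as does Treml2 at −0.65, whereas Havcr2 at −0.73, Trem1 at −0.82, Treml4 at −1.21, Cd300lf at −1.78 and Trem3 at −2.31 lie below it and Cd300lb at 0.37 above it.

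Because microglial markers were lower in the same libraries, each gene was also expressed as a percentage of the geometric mean of the 14 markers in its own library. On that scale Trem2 stood at 47.4% ± 1.48 in wildtype and 48.4% ± 2.91 in DISC1-Δ3, Tyrobp at 42.8% ± 0.624 and 44.2% ± 1.33, and Cd300a at 6.89% ± 0.232 and 7.13% ± 0.203 (CPM ratios, SD, n = 3 each). The groups overlapped for these 3 genes. They also overlapped for Treml2, at 3.36% ± 0.171 and 2.95% ± 0.270, and for Trem1, at 0.573% ± 0.137 and 0.445% ± 0.0755. Havcr2 remained lower in all 3 DISC1-Δ3 libraries, at 4.70% ± 0.165 against 5.65% ± 0.0799 in wildtype, a log2 difference of −0.26. Cd300lf remained lower by a wider margin, at 1.07% ± 0.07 against 2.64% ± 0.276, a log2 difference of −1.31, and Treml4 stood at 0.269% ± 0.0525 against 0.455% ± 0.0884, a log2 difference of −0.76. Trem3 was lower without overlap as well. Cd300lb was higher without overlap, at 0.317% ± 0.0363 against 0.177% ± 0.0122, a log2 difference of 0.84. The result for Trem2, Tyrobp and Cd300a depended on the reference. With Csf1r alone they were higher in DISC1-Δ3 by 0.14, 0.16 and 0.16 on the log2 scale, without overlap of the groups. Havcr2 was at −0.15 and Cd300lf at −1.20 there. With the sum of the 14 markers, Tyrobp and Cd300a were each higher by 0.12 without overlap, and Trem2 by 0.10 with overlap.

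**Figure D3:**
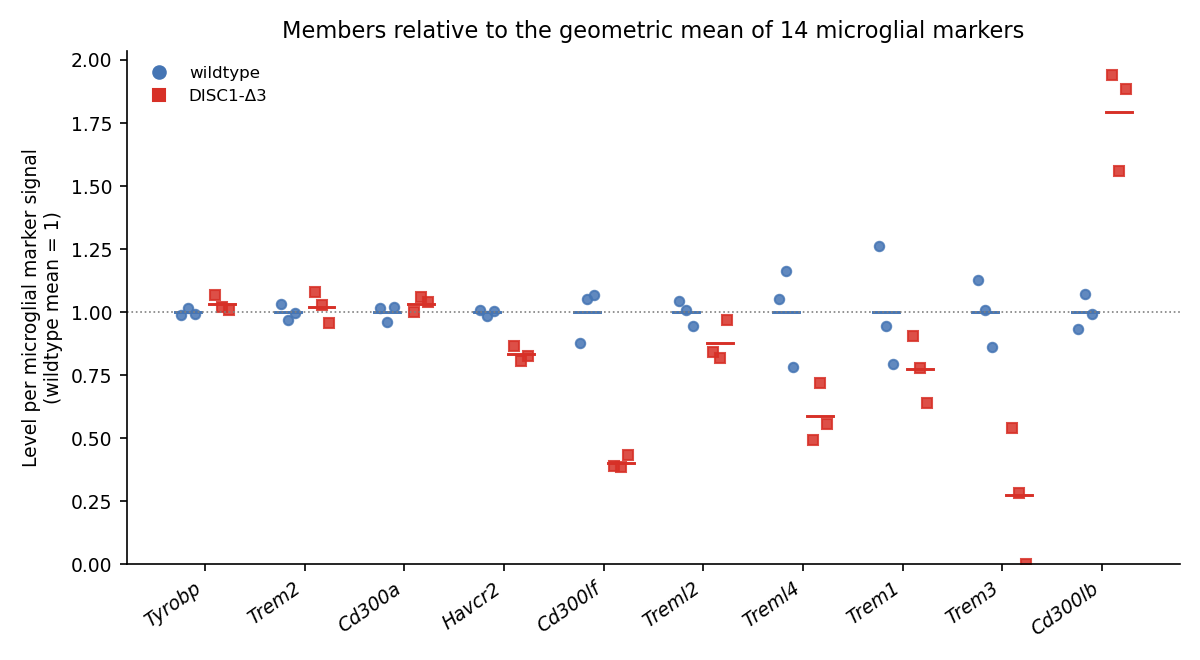
CPM of each of the 10 genes divided by the geometric mean CPM of 14 microglial markers in the same library, set to 1 at the wildtype mean (y axis, linear from 0), for 3 wildtype (blue) and 3 DISC1-Δ3 (red) libraries with a line at each mean. Tyrobp, Trem2 and Cd300a stay near 1 in both groups, Cd300lf, Treml4, Trem3, Havcr2, Treml2 and Trem1 lie below 1 in all 3 DISC1-Δ3 libraries, Treml2 and Trem1 with values that overlap those of wildtype, and Cd300lb lies above 1 in all 3.

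Several of these receptors are also made by myeloid cells other than microglia, and the markers of those cells moved too. Of 8 monocyte and dendritic cell markers 4 could be tested, and 3 fell: Chil3 by 1.62 (edgeR adjusted p = 3.86e-06), Plac8 by 1.08 (adjusted p = 4.69e-08) and Ly6c2 by 0.96 (adjusted p = 0.0031) on the log2 scale. Their summed RPKM was 62.8 to 72.6 in wildtype and 30.7 to 37.0 in DISC1-Δ3. Of 12 neutrophil markers 9 could be tested, 4 fell (Csf3r, S100a8, Retnlg and S100a9) and 1, Ltf, rose, with summed RPKM of 244 to 261 and 185 to 196. The other 4, Ngp, Mmp8, Cxcr2 and Camp, lay at −0.47 to −0.01 without passing the threshold. Csf3r, at 73.0 RPKM in wildtype, changed by −0.66, within the range of the microglial markers (−0.69 to −0.06), and which cells carried its RNA was not tested. The calls of Ltf without wildtype replicate 2 or DISC1-Δ3 replicate 1 (adjusted p = 0.0694 and 0.115) and of Retnlg without wildtype replicate 1 (adjusted p = 0.0521) were lost. Of 8 border macrophage markers 4 fell and 0 rose, with a median log2 fold change of −0.03 and sums of 205 to 215 and 174 to 182. The other 4, Cd163, Lyve1, Pf4 and Ms4a7, lay at 0.14 to 0.44 without passing the threshold. The call of F13a1, 1 of the 4 that fell, was lost without wildtype replicate 1 or 3 or DISC1-Δ3 replicate 1 (adjusted p = 0.0518 to 0.0885). None of the genes on these lists was at 0 in every library, though Elane, a neutrophil protease gene, had 0 reads in all wildtype libraries. Ccr2, the defining chemokine receptor of monocytes, was too low to be tested. It went from 0.273 RPKM in wildtype to 0.127 in DISC1-Δ3 by group mean, without overlap of the groups. The part of these cells in the levels of Trem1, Trem3, Treml4 and Cd300lf was not tested.

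Genes downstream of Tyrobp fell for the most part. Of 28 genes of ITAM signalling tested, 20 fell and 2 rose, with a median log2 fold change of −0.43. Of all 13792 tested genes 19.5% were called lower and 20.4% higher, and each list count stands beside these shares. The 14 microglial markers, 13 of them called lower, had a median of −0.51. Whether the genes of these lists moved apart from the microglial signal was not tested. The Src-family kinase gene Fgr had the largest change (−1.17 ± 0.20 SE, edgeR adjusted p = 0.000145), followed by Hcst, the DAP10 adaptor gene that lies next to Tyrobp (−0.94 ± 0.26 SE, adjusted p = 0.00712), and Pik3cg, a phosphoinositide 3-kinase catalytic subunit gene of leukocytes (−0.87 ± 0.06 SE, adjusted p = 7.97e-09). Syk, the kinase that binds the Tyrobp ITAM, stood at 30.4 ± 1.19 RPKM in wildtype and 28.7 ± 0.379 in DISC1-Δ3 (SD, n = 3 each, −0.17 ± 0.05 SE, adjusted p = 0.00689). Fcer1g, the adaptor gene that many other myeloid receptors use, fell by 0.41 (adjusted p = 6.62e-07), close to Tyrobp. The 2 that rose were Malt1 by 0.42 (adjusted p = 0.0309) and Src by 0.18 (adjusted p = 0.00865). The call of Malt1 was lost without any 1 wildtype library or DISC1-Δ3 replicate 3 (adjusted p = 0.0555 to 0.227), and that of Src without wildtype replicate 2 or DISC1-Δ3 replicate 1 (adjusted p = 0.0667 and 0.0917). Syk was not past the threshold with library totals alone (adjusted p = 0.115) or with limma on log2 RPKM (adjusted p = 0.22 and 0.221 with a pseudocount of 1 and 0.1). Grb2 and Tec were lost in the same fits and Pik3r1 with limma, so that 17 genes fell with library totals alone and 16 with limma. The calls of Grb2 without wildtype replicate 1 or 3 and of Tec without wildtype replicate 3 or DISC1-Δ3 replicate 2 were also lost (adjusted p = 0.0602 to 0.101).

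Genes of a list of inhibitory signalling, not all of which damp these receptors (it also holds Ptprc and Bag6), mostly followed the same direction. Of 12 tested genes of inhibitory signalling 9 fell and 1 rose, with a median of −0.42. Dok3, an adaptor that restrains ITAM signals, went from 21.9 ± 0.851 to 12.1 ± 1.46 RPKM (SD, n = 3 each; −0.91 ± 0.09 SE, adjusted p = 2.70e-07), and Inpp5d, the SHIP1 lipid phosphatase gene, from 131 ± 3.69 to 80.7 ± 2.38 RPKM (−0.79 ± 0.04 SE, adjusted p = 8.92e-11). Ptpn6, the SHP-1 phosphatase gene that the ITIM motifs of Cd300a and Cd300lf recruit, fell by 0.49 (adjusted p = 8.25e-08), while Ptpn11, the SHP-2 gene, did not pass the threshold (0.09 ± 0.05 SE, adjusted p = 0.109). Inppl1, a second lipid phosphatase gene, rose by 0.25 (adjusted p = 0.000263).

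All 9 tested genes of a list of other Tyrobp-linked receptors fell, with a median of −0.49. The list includes Siglece, an inhibitory lectin gene, and Nfam1, whose product carries its own ITAM. The call of Clec5a was lost without wildtype replicate 2 or 3 or DISC1-Δ3 replicate 1 or 2 (adjusted p = 0.0755 to 0.201). It was also lost with DESeq2 (adjusted p = 0.105), library totals alone (adjusted p = 0.133) and the replicate block (adjusted p = 0.0573). With limma on log2 RPKM its adjusted p was 0.172 and 0.178 with a pseudocount of 1 and 0.1. In each of these fits 8 genes of the list fell. Siglech, a microglial lectin gene, went from 307 ± 2.32 to 232 ± 3.81 RPKM (−0.49 ± 0.04 SE, adjusted p = 2.32e-08), and Itgb2, the β2 integrin gene, fell by 0.62 (adjusted p = 2.70e-08). Pilrb1 and Pilrb2 had the largest changes, −2.21 and −1.61 (adjusted p = 0.00141 and 0.00193), from 1.15 to 0.280 and from 1.23 to 0.427 RPKM by group mean, and as closely similar copies their reads may have been split between them.

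Genes of ligands, other partners and shedding proteases of these receptors fell more often than they rose. Of 11 tested, 8 fell and 1 rose, with a median of −0.23, and 5 fell where libraries were scaled by totals alone. Lgals9, which encodes the Tim-3 ligand galectin-9, went from 185 ± 0.841 to 142 ± 2.96 RPKM (SD, n = 3 each; −0.46 ± 0.04 SE, adjusted p = 1.20e-07), and Ceacam1, another reported Tim-3 partner, fell by 0.65 (adjusted p = 9.16e-05). Apoe, a lipoprotein ligand of Trem2 and the gene with the highest mean RPKM of the table, fell by 0.22 (adjusted p = 0.00054). Of the 2 genes of the metalloproteases that cleave Trem2, Adam17 fell by 0.36 (adjusted p = 4.21e-05) and Adam10 by 0.18 (adjusted p = 0.0284). The call of Adam10 was lost without any 1 of the wildtype libraries or DISC1-Δ3 replicate 1 or 2 (adjusted p = 0.0502 to 0.126). Plxna1, a semaphorin receptor gene that is also expressed in neural cells, was the one that rose (0.83 ± 0.05 SE, adjusted p = 5.12e-10).

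Genes that microglia switch on in disease, where they are linked to Trem2, moved in both directions. Whether they depend on Trem2 at this age was not tested. Of 16 tested, 4 fell and 4 rose, with a median of 0.02, and 7 rose where libraries were scaled by totals alone. Gpnmb, a lysosomal glycoprotein gene, rose from 3.54 ± 0.288 to 19.2 ± 0.932 RPKM (SD, n = 3 each; 2.35 ± 0.08 SE, edgeR adjusted p = 1.21e-13). Spp1, which encodes osteopontin, rose from 14.03 ± 0.670 to 48.8 ± 2.48 RPKM (1.72 ± 0.07 SE, adjusted p = 2.88e-12), and Itgax, the CD11c gene, from 2.29 ± 0.273 to 5.05 ± 0.131 RPKM (1.08 ± 0.11 SE, adjusted p = 3.25e-07). Igf1 rose by 0.24 (adjusted p = 0.0354). In the other direction Axl, a receptor kinase gene for dying cells, fell by 0.40 (adjusted p = 1.52e-06), Cst7 by 0.39 (adjusted p = 0.0392), Ctsd by 0.34 (adjusted p = 4.84e-06) and Ctsb by 0.18 (adjusted p = 0.0017). The calls of the small changes were fragile: that of Igf1 was lost without wildtype replicate 1 or 2 or DISC1-Δ3 replicate 1 or 2 (adjusted p = 0.0779 to 0.139), and that of Cst7 without wildtype replicate 2 or 3 or DISC1-Δ3 replicate 1 or 3 (adjusted p = 0.0513 to 0.111). Lpl, Clec7a, Cd9, Cd63 and Fabp5 were among the 8 that did not pass the threshold. Other cells also express several of these genes, so the libraries do not show which cells carried the higher Gpnmb, Spp1 and Itgax RNA.

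**Figure D4:**
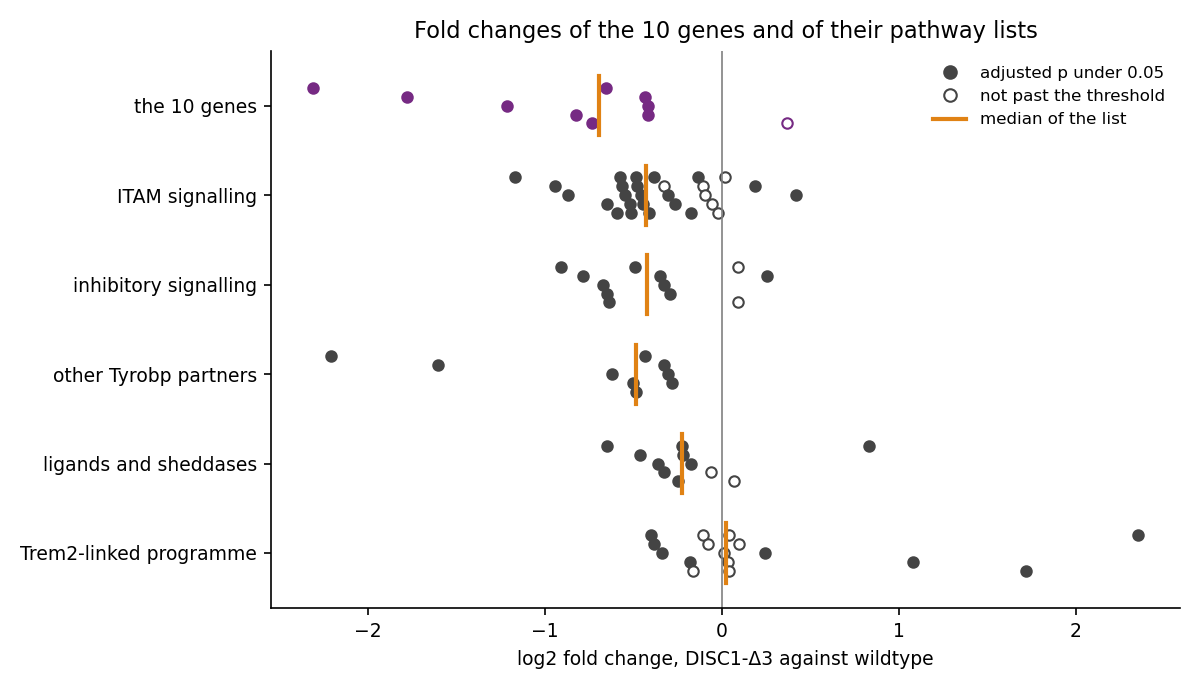
Fitted log2 fold change of DISC1-Δ3 against wildtype (x axis) for the 10 genes (purple) and 5 pathway lists (grey), 1 dot per tested gene, filled where the edgeR adjusted p was under 0.05, with an orange line at each median. The 4 upper lists have medians between −0.69 and −0.42, and the Trem2-linked list has its median at 0.02 with Gpnmb, Spp1 and Itgax far to the right.

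The table held 10 further Trem, Cd300 and Timd genes, of which 4 were tested. Cd300c2, an activating relative of Cd300lb, was the most abundant Cd300 gene, at 113 ± 8.36 RPKM in wildtype and 72.3 ± 5.18 in DISC1-Δ3 (SD, n = 3 each; −0.73 ± 0.06 SE, edgeR adjusted p = 4.45e-08). Cd300ld fell by 1.17 (adjusted p = 0.00173), Cd300ld3 was at −0.69 ± 0.27 SE (adjusted p = 0.052) and Cd300ld5 at −0.09 ± 0.30 SE (adjusted p = 0.841). The Cd300 genes resemble each other in sequence, and 2 of the 60 deposited counts of the 10 genes, both of Cd300a, were not whole numbers, which is how a counter records reads shared between genes.

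The Trem genes lie in 1 cluster on chromosome 17 and the Cd300 genes in 1 cluster on chromosome 11, so the genes around them were listed, after their values had been seen. Beside the Trem cluster (chr17:48232713-48367176), Mdfi, Nfya and Oard1 lay between −0.05 and 0.12 on the log2 scale without passing the threshold, and Foxp4 was at 0.23 (edgeR adjusted p = 0.0248, and 0.0769 to 0.135 without wildtype replicate 1 or 3 or DISC1-Δ3 replicate 1 or 2). Within the cluster B430306N03Rik, an uncharacterised transcript, fell by 0.93 (adjusted p = 5.47e-05). Around the Cd300 cluster (chr11:114889152-115135372) Btbd17 was at 0.17 (adjusted p = 0.0194, and 0.0743 to 0.143 without wildtype replicate 2 or 3 or DISC1-Δ3 replicate 1 or 2) and Slc9a3r1 at −0.14 (adjusted p = 0.0165, and 0.0647 without wildtype replicate 2). Gprc5c, Nat9 and Rab37 did not pass the threshold, Rab37 being the gene that overlaps Cd300lf (−0.18 ± 0.27 SE, adjusted p = 0.621). Next to Tyrobp, Hcst (−0.94, adjusted p = 0.00712) and Nfkbid (−0.70, adjusted p = 1.00e-08) fell, and Sdhaf1 and Lrfn3 did not pass the threshold. Next to Havcr2, Rack1 was at −0.19 (adjusted p = 0.00478) and Cyfip2 at 0.15 (adjusted p = 0.0354, and 0.0546 to 0.205 without any 1 library but wildtype replicate 1). Med7 and Trim41 did not pass the threshold.

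By likeness of profile, the genes nearest to the mean of the 10 over the 6 libraries were Tmem86a, Slamf9, Cyp4f18, Tmem52, Tmem104, B430306N03Rik, Tnfaip8l2, Rhoh, Adam3 and Syngr2. Likeness was the root mean square difference of log2 CPM centred on each gene's own mean, from 0.0496 for Tmem86a to 0.0919 for Syngr2. Tmem86a, which encodes a lysoplasmalogenase of the membrane, went from 146 to 87.2 RPKM by group mean, and Slamf9, a receptor gene of myeloid cells, from 34.8 to 20.2 RPKM. The 0 of Trem3 in DISC1-Δ3 replicate 3 weighed on the mean profile, which stood at −0.69 in that library and at −0.27 and −0.36 in the other DISC1-Δ3 libraries.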

How the data were processed

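Poly(A)-selected RNA of 6 libraries was sequenced as single 50-base reads on a BGISEQ platform. The deposited table gives, for 18211 genes, an estimated read count (expected count) and an RPKM value in each library, as the authors made them; the submitters' processing notes name Bowtie2 2.2.5 and mm10, and the counter and annotation are not given in the sources used here. The authors' 4 group-average columns and their own comparison values were not used, and the methods name DESeq2. Of the counts above 0, 90.2% were whole; all were rounded.

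The 10 genes and all gene lists were chosen with earlier results of these data known. The 13792 genes that reached 0.5 RPKM in 3 or more of the 6 libraries were tested with edgeR 4.0.16 (R 4.3.3), TMM factors of 0.970 to 1.04, quasi-likelihood test, two-sided, Benjamini-Hochberg over all tested genes, threshold 0.05, without a replicate block. The biological coefficient of variation was 5.44%, and library totals were 13716619 to 16417219 reads. The fit was first tested on simulated data. Standard errors are the absolute log2 fold change divided by the square root of F. Exact 95% intervals of read ratios scale by library totals and cover counting error only. Ratios to microglial markers use TMM-scaled CPM. Gene positions and promoters are RefSeq's on GRCm38.p6.

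Named were the 10 genes, Disc1, the 2 to 6 genes of each list with the largest change past the threshold or whose role describes a member, and the 10 genes nearest in profile (log2 CPM, prior count 0.5). Alternatives were other filters, scalings and tests (DESeq2 1.42.0, limma 3.58.1 on log2 RPKM), a replicate block and leaving out each library. Replicate numbers did not pair the libraries: deviations of same-numbered libraries correlated at 0.0041 to 0.045 over genes.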

Additional observations from a re-analysis of the deposited data

How the results depend on the processing

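All 10 genes kept their direction in each of the 148 refits of their log2 fold changes (other filters, scalings, tools, the block and libraries left out), and 131 of these values stayed within the replicate spread. The 10 genes were chosen on this contrast, so the refits and the counts of these genes below describe the processing and support nothing. The median over the 10 genes ran from −0.72 to −0.63 with each library left out and was −0.46 with limma on log2(RPKM + 1), where the pseudocount shrinks the low genes. The count of the 10 past the threshold in the lower direction was 9 in every alternative except the RPKM minimum of 1, which left 8 because it removed Trem3 and Cd300lb. With DISC1-Δ3 replicate 3 left out it was also 9, and the number of genes called rose from 5498 to 6232; the lowest with a library left out was 4342, without wildtype replicate 2. With the replicate block 5429 genes were called, though the numbers do not pair the libraries, and no count given here moved by over 1.5 times. DESeq2 called 4600.

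Relative to microglial markers, the log2 difference of Trem2, 0.03, ran from −0.012 (without DISC1-Δ3 replicate 1, its sign reversed) to 0.075 with libraries left out. Of the pathway counts, ITAM genes that rose numbered 1 with limma on either pseudocount (Malt1 lost) and 0 to 2 with libraries left out, 0 without wildtype replicate 2. Inhibitory genes that rose numbered 3 with library totals alone and with limma on either pseudocount, and 1 to 3 with libraries left out, 3 without DISC1-Δ3 replicate 3. With library totals alone 5 ligand and shedding genes fell and 7 Trem2-linked genes rose, and with no filter 4 family relatives fell. The cause was not tested beyond the shift of 0.09 in the median of all genes under library totals. Depth limits Trem3 and Cd300lb, at 0 to 38 reads per library.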

Other observations

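Markers of the other cell types in these libraries moved in their own directions. Of 8 OPC markers 6 rose and 1 fell in the edgeR test (median log2 fold change 0.47), with Gpr17, a receptor gene of cells committing to the oligodendrocyte lineage, rising by 0.68 (adjusted p = 1.39e-09) and Pdgfra by 0.48 (adjusted p = 2.42e-07). Of 6 neuronal markers 5 rose and 0 fell, Syt1, a synaptic vesicle gene, by 0.96 (adjusted p = 9.34e-08), and of 7 endothelial and pericyte markers 5 rose and 0 fell, Rgs5 by 0.50 (adjusted p = 3.60e-07). Of 7 oligodendrocyte markers 5 fell and 0 rose, and of 6 astrocyte markers 5 fell and 1, Gfap, rose. Of 7 tested lymphoid and mast cell markers 1 fell, Cd79a, and 0 rose.

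Within the microglial list the size of the change differed between genes. The 3 C1q genes fell by 0.60 to 0.69, whereas P2ry12, a purine receptor gene of resting microglia, fell by 0.23 (adjusted p = 0.000114) and P2ry13 did not pass the threshold (−0.06 ± 0.04 SE, adjusted p = 0.314). Tyrobp varied little between the wildtype libraries, with a coefficient of variation of 0.218% in RPKM where counting error alone would give 1.27%, and more between the DISC1-Δ3 libraries, at 2.64% against 1.43%.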
